A study of Homo sapiens with 48 samples.

Results

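The 42 genes described here encode the machinery that copies DNA in S phase, from origin licensing to the S phase checkpoint. They were found by symbol, from a list of names, and the rule for membership uses no measured value. The list was, however, chosen with earlier results of these data known. All 42 had 1 row in the GRO-seq table, among 14745 rows with a gene symbol, and 1 row in the RNA-seq table, among 15535. GRO-seq lets polymerases already at work in isolated nuclei extend their RNA with a labelled nucleotide, so it reads transcription at the time of harvest. RNA-seq of poly(A) RNA reads the pool of mRNA, which also depends on how long each mRNA lasts.

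The cells were MCF10A-1, a human breast epithelial line, carrying an empty vector or stably expressing SATB1, a nuclear protein that organises chromatin. Each kind of cell was left untreated or grown with benzo[a]pyrene at 4 µM, a combustion product whose metabolites form bulky DNA adducts, for 3 hours or 3 days by the titles and sample fields. That gave 6 groups of 4 libraries in each of the 2 assays, 48 in all. Every group shared a medium with fetal bovine serum in place of the horse serum often used for these cells, and with epidermal growth factor, hydrocortisone, insulin and cholera toxin. The labels used here do not say whether the SATB1 cells were 1 clone, or whether the 4 libraries of a group were separate cultures. The p-values thus reflect the spread between libraries alone, and that spread may be technical.

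Results come from the authors' deposited table of each assay, which lists, for each gene and for contrasts numbered 1 to 5, a fold and a p-value without adjustment. No header names the groups behind a number, so contrasts keep their numbers, and higher or lower means a fold above or below 1. The headers use the same 5 numbers for both assays, and reading a number as the same comparison in both is an assumption. A gene was called when its p-value, adjusted by the Benjamini-Hochberg method over all rows of the contrast, was under 0.05. The error after ± is the standard error, on the log2 scale, that a fold and its p-value imply. Its median over the 42 genes was 0.337 in GRO-seq and 0.0391 in RNA-seq, so RNA-seq could call much smaller changes. The tables hold comparisons and not libraries, so depth is unknown and no level of any gene is given. As a check on the contrasts, SATB1 had a fold of 112 in RNA-seq contrast 1. Its RNA-seq folds in contrasts 2 to 5 were 1.05, 0.836, 0.953 and 1.49, and of these that of contrast 5 was called. The errors of those SATB1 folds were 0.18, 0.19, 0.03 and 0.03. CYP1A1, the enzyme that benzo[a]pyrene induces, had RNA-seq folds of 195, 36.0, 45.6 and 4.79 in contrasts 2 to 5. These values were not used to name the groups. In GRO-seq the fold of CYP1A1 was 163 in contrast 2 and 48.0 in contrast 4, both called, and 3.99 in contrast 3 and 2.90 in contrast 5, neither called, and SATB1 was not analysed there. All 7 epithelial markers looked up, such as CDH1, EPCAM and TP63, had a row in both tables, but so did most markers of blood, vessel and stromal cells, 6 of 7 in each. The folds carry no levels, so the labelled cell type was not checked by level.

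As background, origins are licensed in G1, when the origin recognition complex, CDC6 and CDT1 load the MCM2-7 helicase onto DNA. At the start of S phase, CDC45 and the GINS complex join MCM2-7 to form the active helicase, and polymerases alpha, delta and epsilon follow it with the PCNA clamp and its RFC loader. Many of these genes are classical targets of E2F transcription factors, which the RB protein holds inactive until cyclin-dependent kinases phosphorylate it. They are therefore read as markers of proliferating cells, and in bulk RNA a smaller share of cells in S phase and less transcription in each such cell cannot be told apart.

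E2F factors bind a short word near the transcription start, so the starts of the member genes were read for it. RefSeq windows of 300 bases on GRCh38.p14, from 250 before the start to 50 after it, were matched for 29 of the 42 genes. The words TTTGGCGC, TTTGCCGC, TTTCGCGC and TTTCCCGC were searched on both strands, with overlapping matches counted. At least 1 of them stood in 19 of the 29 windows (65.5%), against 4.96% of the 9113 windows of genes in either table and 3.31% of all 35116. The 4 windows below show how these words sit in genes that lead the results, with the E2F words in capitals and each strand read 5′ to 3′. E2F1 encodes the activator itself and holds 2 words just before its start, and POLE2, a polymerase epsilon subunit, has its word across the start. GINS1, a helicase subunit, has its word just after the start, and MCM10, a helicase activator, has none of the 4 words.
E2F1, chr20:33686336-33686635, minus strand: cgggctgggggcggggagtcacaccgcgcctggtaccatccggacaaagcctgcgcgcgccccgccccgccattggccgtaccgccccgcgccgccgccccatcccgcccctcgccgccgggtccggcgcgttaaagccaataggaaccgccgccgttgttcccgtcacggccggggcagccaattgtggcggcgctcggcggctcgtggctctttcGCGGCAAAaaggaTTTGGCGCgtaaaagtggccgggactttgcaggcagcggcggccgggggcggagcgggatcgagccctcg
POLE2, chr14:49688165-49688464, minus strand: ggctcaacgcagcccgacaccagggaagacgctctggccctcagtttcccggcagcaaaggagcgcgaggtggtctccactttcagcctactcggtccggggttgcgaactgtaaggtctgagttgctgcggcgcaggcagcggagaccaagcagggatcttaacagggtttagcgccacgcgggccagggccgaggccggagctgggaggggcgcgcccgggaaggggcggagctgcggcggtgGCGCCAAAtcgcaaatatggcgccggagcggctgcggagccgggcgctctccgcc
GINS1, chr20:25407423-25407722, plus strand: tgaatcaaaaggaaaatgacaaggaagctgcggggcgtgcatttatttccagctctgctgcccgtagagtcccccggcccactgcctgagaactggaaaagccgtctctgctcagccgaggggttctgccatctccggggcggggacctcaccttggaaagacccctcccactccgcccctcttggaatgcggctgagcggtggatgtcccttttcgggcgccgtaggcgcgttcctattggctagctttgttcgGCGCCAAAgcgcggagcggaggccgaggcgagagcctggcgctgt
MCM10, chr10:13161308-13161607, plus strand: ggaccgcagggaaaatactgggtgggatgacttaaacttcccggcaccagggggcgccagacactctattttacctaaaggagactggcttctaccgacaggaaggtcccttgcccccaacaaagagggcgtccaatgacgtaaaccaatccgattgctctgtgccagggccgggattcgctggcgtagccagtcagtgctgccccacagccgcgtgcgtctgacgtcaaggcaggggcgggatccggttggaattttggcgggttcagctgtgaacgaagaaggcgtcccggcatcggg
A match is a description of letters and not a measured binding site. The CCAAT word stood in 16 of the 29 windows (55.2%) and in 37.1% of those of genes in either table. The GC box GGGCGG stood in 19 of 29 (65.5%) and in 67.0% of those of genes in either table.

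In nascent RNA, 12 of the 42 replication genes were lower in contrast 2 and 25 in contrast 3, and none was higher in any of the 5 contrasts. The 25 of contrast 3 compare with a table in which 8.92% of all genes were lower and 9.23% higher. The median log2 fold of all 42 there was -1.24, a fold of 0.423, with 41 of 42 below 1, against a median of -0.01 and 50.4% below 1 over all genes. In contrast 2, 7.83% of all genes were lower and 7.63% higher, and the median log2 fold of the 42 was -0.66 with 35 below 1.

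Contrasts 1 and 5 had few calls over the whole table, and most folds of the replication genes were below 1 in both, with 1 call. In contrast 1, MCM5 alone was lower, where 0.495% of genes were lower and 0.292% higher, and 39 of 42 folds were below 1, with a median log2 fold of -0.48. In contrast 5 no replication gene was called by the limma p-values after adjustment, where 0.122% of genes were lower and 0.115% higher. All 42 folds of contrast 5 were below 1, where 50.3% of all genes were, and the median log2 fold was -0.82. At an unadjusted p under 0.05, 22 of the 42 genes were below 1, where 5.83% of all genes were, and none was above. Contrast 4 stood apart: none was called, where 1.53% of genes were lower and 1.58% higher, 23 of 42 folds were below 1 and the median log2 fold was -0.02. At an unadjusted p under 0.05, 2 genes were below 1 and 1 above in contrast 4, where 7.03% of all genes were below and 8.52% above, shares no smaller than those of the 42.

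In mRNA, most of the 42 genes were higher in contrasts 1 and 3, by small amounts. In contrast 1, 28 were higher and none lower, where 23.2% of all genes were higher and 20.7% lower, and the median log2 fold was 0.16. In contrast 3, 25 were higher and 1 lower, where 18.3% were higher and 17.8% lower, with a median of 0.12. In contrast 5, 15 were higher and 1 lower, where 10.5% were higher and 10.9% lower, with a median of 0.06. In contrast 2 the balance was the other way, with 1 higher and 6 lower, where 9.64% of all genes were higher and 9.63% lower. In contrast 4 none was called in either direction, where 3.87% were higher and 4.90% lower, and at an unadjusted p under 0.05, 1 was above 1 and 6 below, where 10.5% of all genes were above and 12.0% below. With a minimum of 1.5-fold, 1 gene was left as higher in contrast 1 (TK1), 1 in contrast 3 (CCNE2) and none in contrast 5. The shares of all genes above carry no minimum fold, so these last counts are not set against all genes.

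**Figure D1:**
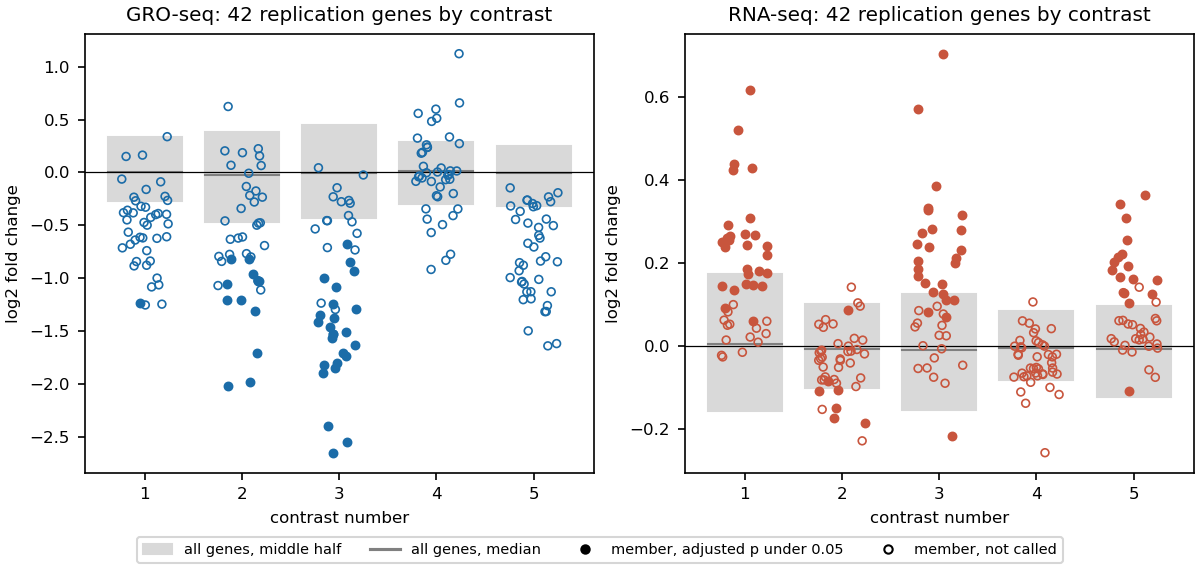
Log2 fold change of each of the 42 replication genes (points, spread sideways for sight) in contrasts 1 to 5, GRO-seq on the left and RNA-seq on the right, on different vertical scales. Filled points passed an adjusted p of 0.05, and grey bars span the middle 50% of all genes with their median as a line. In GRO-seq all 25 filled points of contrast 3 lie below 0, and in RNA-seq 28 filled points of contrast 1 and 25 of contrast 3 lie above 0.

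Among the licensing genes, ORC1 and ORC6 are subunits of the origin recognition complex, CDC6 and CDT1 are loading factors, and MCM2 to MCM7 form the helicase ring. In GRO-seq contrast 3, 7 of these 10 were lower in the authors' deposited table and none was higher. Of all genes, 8.92% were lower there and 9.23% higher. MCM5 was the licensing gene with the smallest adjusted p, with folds of 0.424, 0.491, 0.284, 0.957 and 0.614 in GRO-seq contrasts 1 to 5. It was lower in the first 3 of those, with adjusted p-values of 0.040, 0.0077 and 0.00016, and it was the sole replication gene called in GRO-seq contrast 1. CDT1, which brings MCM2-7 to the origin and is destroyed once S phase begins, had the lowest GRO-seq fold of the group in contrast 3, 0.269 (log2 -1.90 ± 0.51). Its fold in contrast 2 was 1.14, with no call. MCM2 had folds of 0.831, 0.655, 0.348, 1.18 and 0.560 in GRO-seq contrasts 1 to 5, and of these the value of contrast 3 was called.

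ORC1, ORC6, MCM3 and MCM6 were also lower in GRO-seq contrast 3, with folds of 0.324, 0.375, 0.363 and 0.386. CDC6, MCM4 and MCM7 were not called there, with folds of 0.602, 0.754 and 0.691. The 6 ring subunits, which work in equal numbers, thus had GRO-seq folds from 0.284 to 0.754 in contrast 3, all below 1. MCM7 overlaps AP4M1, and the strand of counting is not stated, so reads of such pairs may be shared.

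In mRNA the licensing genes had their most calls in contrast 1, where 7 of 10 were higher against 23.2% of all genes. CDC6 at 1.18 and MCM5 at 1.20 led, and ORC1, CDT1 and MCM3 were not called, at 1.04, 1.01 and 1.02. In contrast 3, CDC6, ORC6 and MCM4 were higher, at 1.22, 1.18 and 1.06, where 18.3% of all genes were higher. CDT1 was lower there at 0.861, the sole replication gene lower in that contrast, where 17.8% of all genes were. CDT1 was also lower in RNA-seq contrast 2, at 0.902, as were MCM2 at 0.928, MCM4 at 0.944 and MCM5 at 0.930. Those 4 were of the 6 replication genes called lower there, where 9.63% of all genes were. All 10 licensing genes had a fold below 1 in that contrast. CDC6 had RNA-seq folds of 1.18, 0.950, 1.22, 1.03 and 1.19 in contrasts 1 to 5, and those of contrasts 1, 3 and 5 were called. It was the sole licensing gene called in RNA-seq contrast 5, where 10.5% of all genes were higher.

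Most of the helicase activation genes were lower in nascent RNA. MCM10 is needed to activate the loaded helicase, and CDC45 and GINS1 to GINS4 complete it. In GRO-seq contrast 3, 5 of the 6 were lower, and in contrast 2, 4 of the 6, where 8.92% and 7.83% of all genes were. MCM10 had GRO-seq folds of 0.501, 0.434, 0.190, 1.03 and 0.326 in contrasts 1 to 5, called in contrasts 2 and 3. CDC45 had folds of 0.545, 0.306, 0.278, 1.01 and 0.435, also called in contrasts 2 and 3, with adjusted p-values of 0.0004 and 0.00027. Both genes were below 1 in every GRO-seq contrast but 4.

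GINS1 and GINS3 were lower in GRO-seq contrasts 2 and 3, at 0.482 and 0.394 for GINS1 and 0.490 and 0.421 for GINS3. GINS2 was lower in contrast 3, at 0.300. GINS4 was not called in any GRO-seq contrast, with folds of 1.12, 1.11, 0.818, 1.51 and 0.706. The 4 GINS proteins form 1 complex in equal numbers, and the GRO-seq folds of their genes in contrast 3 ran from 0.300 to 0.818.

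In RNA-seq contrast 3 the same 6 genes stood above 1, and 5 were higher, where 18.3% of all genes were. These were MCM10 at 1.31, GINS1 at 1.24, GINS3 at 1.16, GINS4 at 1.15 and CDC45 at 1.09. GINS2 was not called there, at 1.07, but was higher in contrast 1 at 1.21. MCM10, GINS1, GINS3 and GINS4 were higher in RNA-seq contrast 5, at 1.17, 1.12, 1.14 and 1.12. GINS2 overlaps GSE1.

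Of the polymerase genes, POLA1 and POLA2 encode polymerase alpha, which with the primase PRIM1 starts each new strand, and POLD1, POLE and POLE2 encode subunits of the enzymes that extend it. In GRO-seq contrast 3, 5 of the 6 were lower, where 8.92% of all genes were. These were POLE2 at 0.339, POLD1 at 0.351, POLA2 at 0.473, POLE at 0.524 and POLA1 at 0.628. PRIM1 was not called, at 0.671. POLA2, POLE and POLE2 were also lower in contrast 2, at 0.434, 0.567 and 0.515. None of the 6 was called in GRO-seq contrasts 1, 4 or 5.

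In mRNA, POLA2 was higher in contrasts 1, 3 and 5, at 1.20, 1.11 and 1.09, and lower in contrast 2, at 0.887. POLE2 was higher in contrasts 1 and 3, at 1.14 and 1.22, and POLD1 in contrast 1, at 1.19. POLA1, the catalytic subunit and the longest of the 42 genes at 303 kb, was higher in contrast 1 at 1.10 and lower in contrast 5 at 0.929. PRIM1 and POLE were not called in any RNA-seq contrast.

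The genes of the sliding clamp, its loader and Okazaki fragment maturation were mostly not called in nascent RNA. PCNA is the clamp, RFC2 to RFC5 load it, FEN1 and LIG1 trim and seal Okazaki fragments, and RPA2 coats single-stranded DNA. Of these 8, RFC2 alone was lower, at 0.569 in GRO-seq contrast 2 and 0.499 in contrast 3, where 7.83% and 8.92% of genes were. The other 7 had GRO-seq folds from 0.611 (RFC5) to 1.03 (FEN1) in contrast 3, and RFC3, RFC4, LIG1, RPA2 and PCNA lay between, at 0.984, 0.730, 0.729, 0.724 and 0.826. RFC3 had the largest GRO-seq fold of all 42 genes in any contrast, 2.18 in contrast 4, and it missed the threshold with an adjusted p of 0.065. For FEN1 and PCNA the errors in GRO-seq contrast 3 were wide, 0.69 and 0.60 on the log2 scale, so a change of their nascent RNA would have been hard to detect.

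In mRNA, PCNA had folds of 0.990, 1.00, 1.08, 0.965 and 1.05 in contrasts 1 to 5, and was higher in contrast 3. FEN1 was higher in contrasts 1, 3 and 5, at 1.11, 1.21 and 1.12, and RFC5 in contrasts 1 and 3, at 1.11 in both. RFC3 was higher in contrast 3, at 1.12, and RFC2 and RFC4 in contrast 1, at 1.16 and 1.13. LIG1 and RPA2 were not called in any contrast of either assay.

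The nucleotide supply genes make the deoxynucleotides that the polymerases use. RRM1 and RRM2 are the subunits of ribonucleotide reductase, TYMS makes thymidylate and TK1 salvages thymidine. None of the 4 was called in any GRO-seq contrast, where TK1 had folds of 0.764, 0.577, 0.408, 0.754 and 0.354, and RRM2 of 1.11, 0.651, 0.425, 0.675 and 0.775. The errors of RRM2 ran from 0.82 to 0.89, the widest of the 42 genes, so its nascent RNA was measured with little precision. RRM1 and TYMS stood closer to 1 in GRO-seq contrast 3, at 0.833 and 0.853.

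These genes held some of the largest mRNA folds of the 42. RRM2 had RNA-seq folds of 1.43, 1.06, 1.49, 1.02 and 1.24 in contrasts 1 to 5 and was the sole replication gene higher in contrast 2, with an adjusted p of 0.042. TK1 was higher in contrasts 1, 3 and 5, at 1.53, 1.19 and 1.16, and RRM1 in contrasts 3 and 5, at 1.10 and 1.08. TYMS was higher in contrasts 1 and 3, at 1.07 and 1.05. All 4 were thus higher in contrast 3, where 18.3% of all genes were. TYMS overlaps ENOSF1.

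Of the genes of G1/S control, E2F1 and E2F2 encode activators of the whole program, and CCNE1 and CCNE2 the E cyclins that drive CDK2. E2F1 had GRO-seq folds of 0.560, 0.254, 0.171, 0.530 and 0.321 in contrasts 1 to 5, and was lower in contrasts 2 and 3, with adjusted p-values of 0.0036 and 0.00093. It was below 1 in every contrast, 4 included. CCNE1 had folds of 0.610, 0.492, 0.306, 0.711 and 0.458 and CCNE2 of 0.895, 0.463, 0.409, 0.562 and 0.402, and both were lower in contrast 3. E2F2 was not called in either assay, with a GRO-seq fold of 0.905 in contrast 3, and its RNA-seq error, 0.09 to 0.10, was wide for that assay.

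In mRNA all 4 of these genes had folds above 1 in contrasts 1, 3 and 5. CCNE2 had RNA-seq folds of 1.18, 1.10, 1.63, 1.04 and 1.27, and 1.63 was the largest RNA-seq fold of the 42 genes in any contrast. CCNE1 had folds of 1.35, 0.973, 1.25, 0.956 and 1.15, and E2F1 of 1.34, 0.935, 1.14, 0.942 and 1.10. Both cyclins were higher in contrasts 1, 3 and 5 and E2F1 in contrasts 1 and 3. CCNE2 overlaps INTS8 and NDUFAF6.

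The last 4 genes guard replication. CHEK1 encodes the kinase that restrains origins when forks stall, CLSPN the adaptor that ATR needs to activate it, DTL the substrate receptor of the ligase that removes CDT1 in S phase, and UHRF1 the factor that brings DNMT1 to newly copied DNA. All 4 were lower in GRO-seq contrast 3, where 8.92% of all genes were. UHRF1 had folds of 0.422, 0.246, 0.159, 0.788 and 0.488 in GRO-seq contrasts 1 to 5, and 0.159 was the lowest GRO-seq fold of the 42 genes (log2 -2.65 ± 0.39, adjusted p = 5.7e-05). DTL had folds of 0.472, 0.402, 0.287, 0.943 and 0.418 and, like UHRF1, was lower in contrasts 2 and 3. CLSPN was lower in contrast 3 at 0.348, and CHEK1 at 0.556.

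In mRNA all 4 were higher in contrast 3, where 18.3% of all genes were. CLSPN stood at 1.26, DTL at 1.18, UHRF1 at 1.15 and CHEK1 at 1.08. CLSPN, DTL and UHRF1 were also higher in contrasts 1 and 5, at 1.35 and 1.29 for CLSPN, 1.24 and 1.09 for DTL and 1.19 and 1.14 for UHRF1. UHRF1 was lower in contrast 2, at 0.880. CHEK1 overlaps ACRV1 and UHRF1 overlaps ARRDC5.

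**Figure D2:**
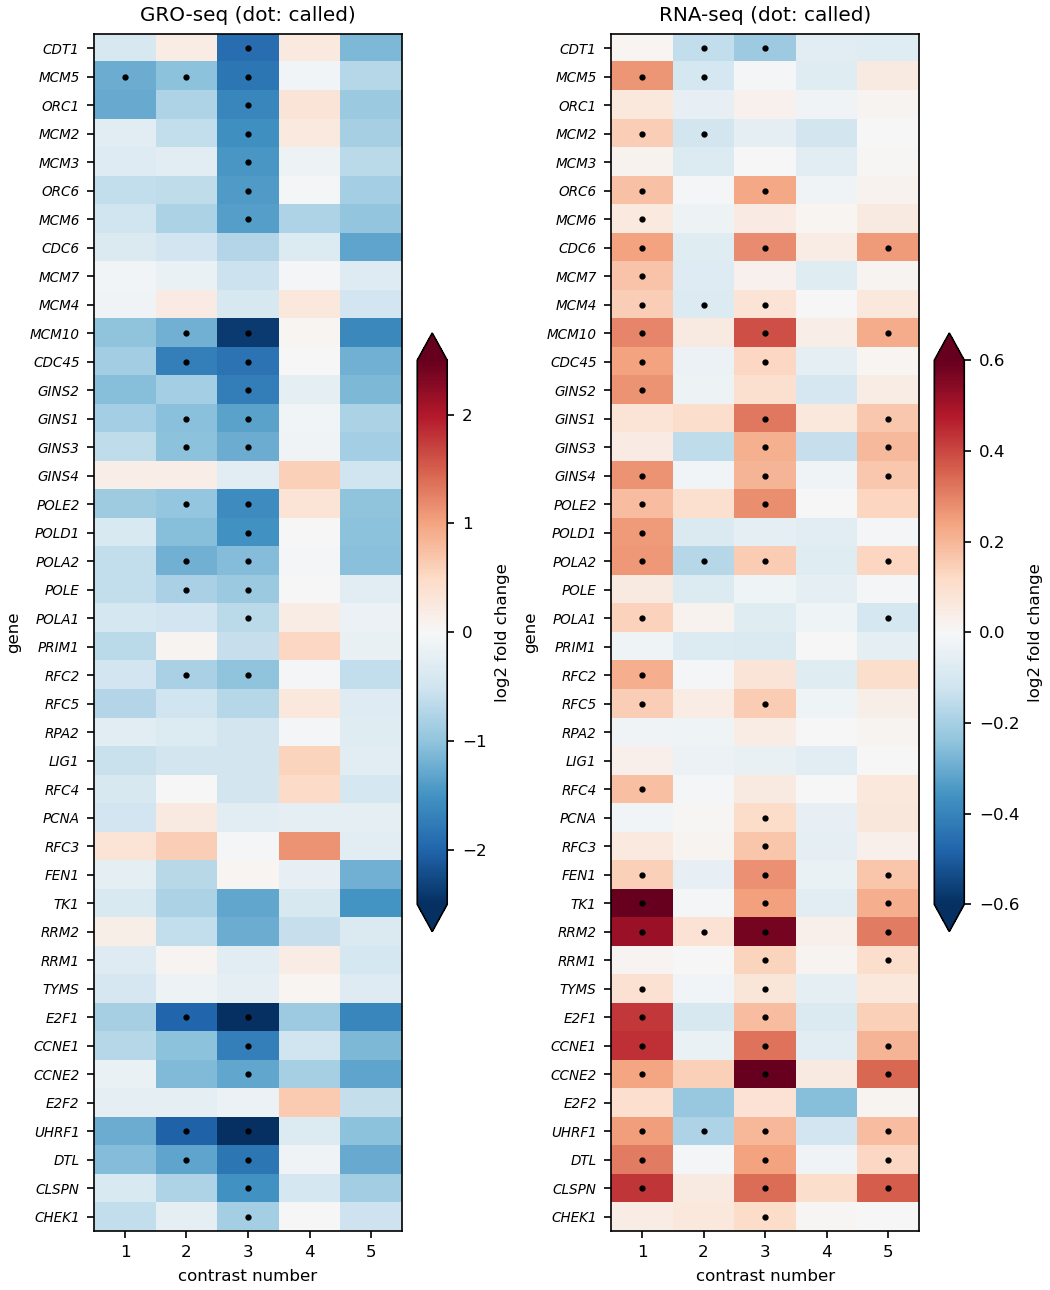
Log2 fold change of the 42 replication genes (rows, in the order of their role groups) in GRO-seq and RNA-seq contrasts 1 to 5 (columns), with a colour scale for each assay and a dot on each call. The GRO-seq column of contrast 3 holds 25 dots, all lower, and those of contrasts 4 and 5 hold none; the RNA-seq columns of contrasts 1, 3 and 5 hold 28, 25 and 15 dots that are higher.

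In contrast 3 many replication genes were lower in nascent RNA and higher in mRNA. There, 14 genes were lower in GRO-seq and higher in RNA-seq, namely CCNE1, CCNE2, CDC45, CHEK1, CLSPN, DTL, E2F1, GINS1, GINS3, MCM10, ORC6, POLA2, POLE2 and UHRF1. Of the 13772 genes present once in both tables, 3.13% had that pair of calls. CDT1 alone was lower in both, as were 1.65% of all genes. A further 10 were lower in GRO-seq alone, where 4.71% of all genes were, and 11 were higher in RNA-seq alone, where 15.6% were. The 6 called in neither were E2F2, LIG1, MCM7, PRIM1, RFC4 and RPA2, where 50.5% of all genes were called in neither. In contrast 1 MCM5 was lower in GRO-seq and higher in RNA-seq, as were 0.160% of all genes, and 27 genes were higher in RNA-seq alone, where 24.3% were. In contrast 2, MCM5, POLA2 and UHRF1 were lower in both assays, as were 2.13% of all genes.

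The difference between the assays was tested for each gene, as the RNA-seq log2 fold minus the GRO-seq log2 fold, with p-values adjusted over the 13772 genes present once in both tables. Folds spread more widely in GRO-seq. The middle 50% of all its log2 folds in contrast 3 ran from -0.43 to 0.45, and in RNA-seq from -0.15 to 0.13. A difference can thus pass for a gene that moved the same way in both assays, as CDT1 did in contrast 3. In contrast 3 the difference was above 0 for all 42 replication genes, with a median of 1.44. There, 26 passed the test, where 11.4% of all genes did so in that direction. UHRF1 had the largest difference, 2.85 ± 0.39 (adjusted p = 1.2e-05), followed by MCM10 at 2.78 ± 0.52 and E2F1 at 2.73 ± 0.50. CDC45, which unwinds DNA with the ring, differed by 1.98 ± 0.32 and MCM5 by 1.81 ± 0.30.

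In contrast 2 the difference passed for 10 genes, where 6.96% of all genes passed in that direction, and the median was 0.67. MCM5, POLA2 and UHRF1, which were lower in both assays, were among the 10. CDC45 had the smallest adjusted p, with a difference of 1.67 ± 0.31, followed by UHRF1 at 1.84 ± 0.34. In contrast 1 it passed for 8, where 3.27% did, and MCM5 had the smallest adjusted p, 0.0014, followed by UHRF1, with a difference of 1.49 ± 0.31. In contrast 5 CDC6 alone passed, at 1.57 ± 0.35 (adjusted p = 0.027), where 0.399% of all genes did, although the difference was above 0 for all 42. In contrast 4 no replication gene passed, where 1.34% of all genes passed above 0 and 1.23% below, and the median difference was -0.04. At an unadjusted p under 0.05, 2 were above 0 and 3 below in contrast 4, where 6.77% of all genes were above and 7.51% below.

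**Figure D3:**
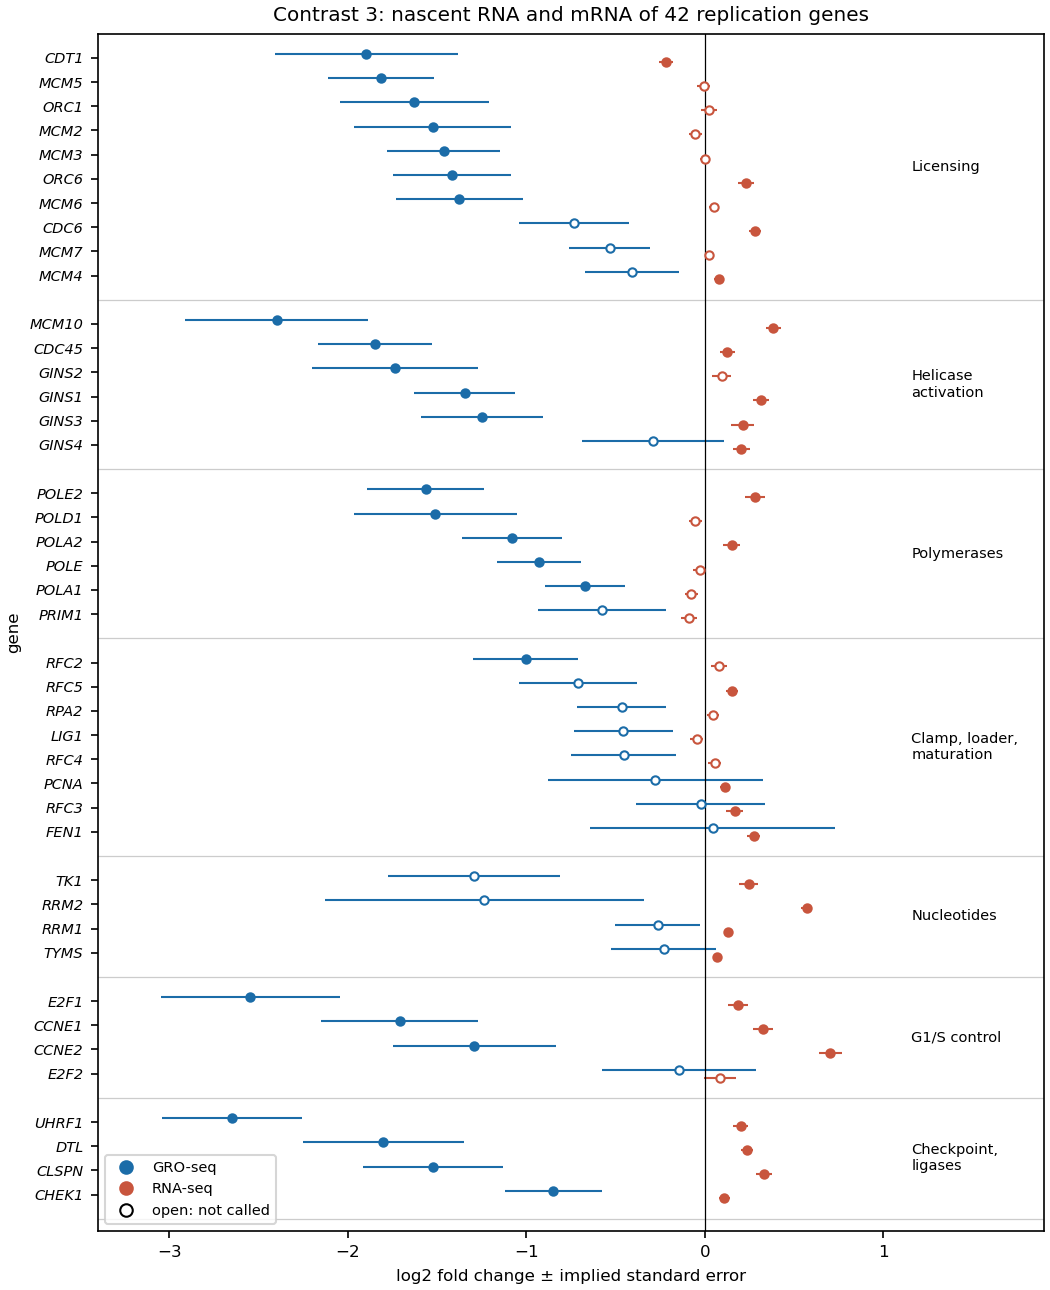
Log2 fold change (horizontal) of each of the 42 replication genes (rows, by role group) in contrast 3, GRO-seq in blue and RNA-seq in red, with lines of 1 implied standard error on each side and open points for genes not called. All GRO-seq points but that of FEN1 lie left of 0, and 34 of 42 RNA-seq points lie right of 0, with UHRF1, E2F1 and MCM10 farthest left and CCNE2 and RRM2 farthest right.

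Contrasts within an assay were also set against each other, with their errors taken as independent, since no header names the groups. Contrasts that share a group would have correlated errors, so correlations of 0.5 and -0.5 were also tried. In RNA-seq, the fold of contrast 3 was above that of contrast 2 for 18 replication genes, where 8.91% of all genes passed in that direction. RRM2 had the smallest adjusted p, with a log2 difference of 0.48 ± 0.04 (adjusted p = 7.1e-14), followed by CDC6 at 0.36 ± 0.05 and CCNE2 at 0.56 ± 0.09. The fold of contrast 5 was above that of contrast 4 for 17, where 6.41% passed, again with RRM2 at the smallest adjusted p, at 0.28 ± 0.04. The fold of contrast 5 was below that of contrast 3 for 3 genes, CCNE2 by -0.36, RRM2 by -0.26 and ORC6 by -0.21, where 1.92% of all genes passed.

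In GRO-seq these differences were mostly too small for their errors. Between contrasts 3 and 2, 38 of 42 genes had the lower fold in contrast 3, with a median difference of -0.49, but none passed, where 0.0610% of all genes did. At an unadjusted p under 0.05, 3 had the lower fold in contrast 3, where 1.45% of all genes did. Between contrasts 5 and 4, 41 of 42 had the lower fold in contrast 5 and the median was -0.74. None passed there either, where 0.224% of all genes did, and at an unadjusted p under 0.05, 13 had the lower fold in contrast 5, where 2.86% did. Between contrasts 4 and 2, CDC45 alone passed, at 1.72 ± 0.41, where 0.644% of all genes did. That count rests on the assumed independence, since it is 14 with a correlation of 0.5 between the contrasts and 0 with one of -0.5. The share of all genes at those correlations is not given. Between contrasts 5 and 3 none passed, where 0.590% did, and at an unadjusted p under 0.05, 2 had the higher fold in contrast 5, where 6.84% did.

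Gene length and promoter words were compared with the nascent calls, as a description. The 42 genes had a median length of 24.4 kb, from 4.33 kb (FEN1) to 303 kb (POLA1), against 35.9 kb for the 14184 GRO-seq genes with a length. The 25 genes lower in GRO-seq contrast 3 had a median length of 36.8 kb and the other 17 of 17.2 kb. Across the 42 genes, Spearman's rho of the GRO-seq log2 fold with length was -0.09 in contrast 3, and across all genes it was -0.07, where genes are not independent replicates. The 4496 genes of 15.8 to 48.3 kb, the middle range of the 42, had a median log2 fold of -0.02 in contrast 3. Of the windows printed above, those of E2F1, POLE2 and GINS1 hold an E2F word and that of MCM10 holds none of the 4 searched. The MCM10 window does hold TTTGGCGG, which differs from the searched TTTGGCGC in its last base. All 4 genes were lower in GRO-seq contrast 3. Among the 19 lower genes with a window, 14 held an E2F word (73.7%), and among the 10 others, 5 did (50%).

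Related genes outside the 42 were read from lists of the same pathway. Over all genes, 8.92% were lower and 9.23% higher in GRO-seq contrast 3, and 18.3% were higher and 17.8% lower in RNA-seq contrast 3. Of 31 other replication factors, none was higher and 9 were lower in GRO-seq contrast 3, among them MCM8 at 0.417, TICRR at 0.548 and DNA2 at 0.552. In RNA-seq contrast 3, 9 were higher and 1 lower, DNA2 at 1.19, WDHD1 at 1.13 and DBF4 at 1.18 leading. Of 10 genes of replication-coupled chromatin, 6 were lower in GRO-seq contrast 3, with the maintenance methyltransferase DNMT1 at 0.395, the chromatin assembly subunit CHAF1A at 0.388 and the histone mRNA binding protein SLBP at 0.445. In RNA-seq contrast 3, 4 of those 10 were higher and none lower. In RNA-seq contrast 1, 9 of the 10 were higher, where 23.2% of all genes were, with DNMT1 at 1.21. Of 15 other nucleotide supply genes, 3 were lower and 1 higher in GRO-seq contrast 3. The higher one was RRM2B, the p53-induced counterpart of RRM2, at 2.58, and it was also higher in contrast 2, at 2.45.

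The upstream regulators were mixed. Of 22 genes of the RB-E2F axis, 6 were lower and 1 higher in GRO-seq contrast 3, where 8.92% and 9.23% of all genes were. In RNA-seq contrast 3, 12 of them were higher and 4 lower, where 18.3% and 17.8% of all genes were. CCND1, the D cyclin that starts RB phosphorylation, had GRO-seq folds of 0.490, 0.276, 0.289, 0.446 and 0.595 in contrasts 1 to 5, and those of contrasts 2, 3 and 4 were called. In RNA-seq CCND1 was lower in contrasts 2 and 4, at 0.862 and 0.888, and higher in contrasts 3 and 5, at 1.13 and 1.08. It was not called in RNA-seq contrast 1, at 1.04. CDC25A, the phosphatase that activates CDK2, was lower in GRO-seq contrast 3 at 0.190 and higher in RNA-seq contrast 3 at 1.32. MYC was lower in all 5 RNA-seq contrasts, at 0.884, 0.640, 0.863, 0.682 and 0.838. It was not called in any GRO-seq contrast, where its folds were 0.666, 0.655, 0.73, 1.31 and 1.66. Among 7 inhibitors of cyclin-dependent kinases, 3 were higher in GRO-seq contrast 3, CDKN1B at 3.88, CDKN1A at 2.92 and CDKN2D at 3.30. The same contrast had 1 lower, at a log2 fold of -2.33. In RNA-seq contrast 3, 2 of the 7 were higher and 2 lower, with a median log2 fold of 0.01. Their median in RNA-seq contrast 5 was -0.15. CDKN1A, which encodes p21, was higher in RNA-seq contrasts 2 to 5, at 1.46, 1.48, 1.29 and 1.23, and lower in contrast 1, at 0.851. The part of these changes in those of the replication genes was not tested.

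Mitosis genes, which belong to the same dividing cells but peak later in the cycle, gave a comparison. Of 30, 6 were lower and none higher in GRO-seq contrast 3, where 8.92% of all genes were lower and 9.23% higher. Their median log2 fold there was -0.32, against -1.24 for the 42 replication genes. In GRO-seq contrast 2 the mitosis median was 0.29 and in contrast 4 it was 0.62, where the replication genes had -0.66 and -0.02. In contrast 5 both were below 0, at -0.79 for mitosis and -0.82 for replication. All 30 mitosis folds were below 1 there, as were all 42 replication folds. At an unadjusted p under 0.05, 18 of the 30 and 22 of the 42 were below 1, where 5.83% of all genes were. After adjustment 1 mitosis gene was lower there and no replication gene, where 0.122% of all genes were. In RNA-seq contrast 1, 28 of the 30 were higher and 1 lower, where 23.2% of all genes were higher and 20.7% lower. In contrast 2, 8 were higher and none lower, where 9.64% of all genes were higher and 9.63% lower. In contrast 3, 13 were higher and 2 lower, where 18.3% and 17.8% of all genes were. In contrast 5, 3 were higher and 1 lower, shares no larger than those of all genes, 10.5% and 10.9%. These medians describe the lists, and the difference between the lists was not tested.

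**Figure D4:**
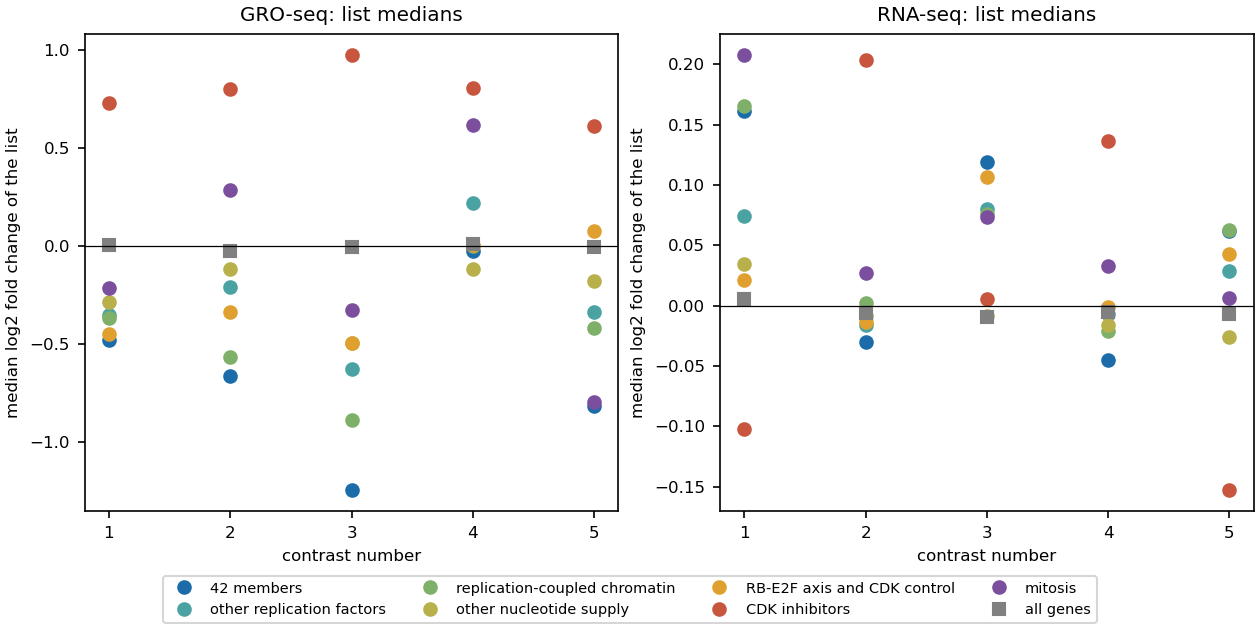
Median log2 fold change of the 42 replication genes (members), of each related list and of all genes in contrasts 1 to 5, GRO-seq on the left and RNA-seq on the right, with a line at 0. The replication genes have the lowest GRO-seq median of the lists shown in contrast 3, -1.24, and the mitosis genes stand at 0.62 in GRO-seq contrast 4, where the replication genes stand at -0.02.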

How the data were processed

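Fold changes and p-values were those the authors deposited: per the file headers, each table holds, for 5 contrasts, a linear ratio (fold) and a p-value without adjustment for every gene symbol. The submitters' processing notes name limma, featureCounts and BWA 0.7.16a on the GRO-seq side, DESeq and STAR on the RNA-seq side, and the build GRCh38. Whether counting used the strand is not given in those sources, so genes that overlap another are uncertain. This holds for 8 of the 42 genes that overlap another protein-coding gene, among them ORC1 with PRPF38A and RFC5 with WSB2, and for 21 that overlap any gene. A filter by the authors on low counts, the scaling between libraries and the shrinking of folds could each change the values, and none is stated.

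Benjamini-Hochberg adjustment was run per contrast on all rows with a symbol, which left out 156 RNA-seq rows (0.994%). The implied standard error divides the size of the log2 fold by Student's quantile at its deposited p-value. The degrees of freedom, 25 for GRO-seq and 30 for RNA-seq, are those at which a gene's 5 errors varied least. Differences between assays or contrasts were tested with the combined errors and Welch-Satterthwaite degrees of freedom, two-sided. The steps were tested on simulated data. The depth is unknown.

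The 42 genes and the other lists were chosen with earlier results of these data known, so the lists are described by counts and medians with no test of their own. All 42 could be named; those given in full are up to 4 called genes with the smallest adjusted p in each direction of a contrast, the extremes of each role group and 10 chosen genes such as E2F1 and MCM2. Of the other lists up to 3 called genes with the smallest adjusted p in a contrast were named, with CDKN1A, MYC, CCND1 and RRM2B. The titles and sample fields set the exposure times, since 1 protocol text gives the short exposure another length. Alternatives were stricter or looser thresholds, a minimum fold, centring on the median, the more precisely measured genes, other degrees of freedom and correlated contrasts. The work was done in Python 3.11.15 with scipy 1.17.1, pandas 2.3.3 and numpy 2.4.6, and plots were drawn with matplotlib 3.10.9.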

Additional observations from a re-analysis of the deposited data

How the results depend on the processing

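Counts of replication genes are given here as they became under each alternative. The shares of all genes given above hold for the main settings alone. The counts in this section thus show how far results moved, and are not set against all genes. At an adjusted p under 0.01, those lower in GRO-seq were 0, 6 and 16 in contrasts 1, 2 and 3 in place of 1, 12 and 25. In RNA-seq, contrast 2 then had 0 higher and 2 lower, and contrast 5 had 0 lower. At an adjusted p under 0.1, GRO-seq had 2 lower in contrast 1 and 1 higher in contrast 4, and RNA-seq had 2 lower in each of contrasts 3 and 4. The RNA-seq fold was then above the GRO-seq fold for 13 genes in contrast 1 and 7 in contrast 5, and below it for 1 in contrast 4. With a minimum of 1.5-fold, the genes higher in RNA-seq were 1, 0, 1 and 0 in contrasts 1, 2, 3 and 5, and those lower were 0 in contrasts 2, 3 and 5. Among the more precisely measured genes (implied error no larger than the median of their table), which hold 19 of the 42 in GRO-seq and 38 in RNA-seq, 7 and 11 were lower in GRO-seq contrasts 2 and 3, with fewer genes tested, and 1 was lower in RNA-seq contrast 4.

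A correlation of 0.5 between contrasts gave, in GRO-seq, 2 lower in contrast 3 than 2, 5 lower in contrast 5 than 4, 14 higher in contrast 4 than 2 and 2 higher in contrast 5 than 3. In RNA-seq it gave 29 higher and 1 lower in contrast 3 than 2, 1 higher in contrast 4 than 2, and 1 higher and 11 lower in contrast 5 than 3. A correlation of -0.5 gave 0 higher in GRO-seq contrast 4 than 2, 6 higher in RNA-seq contrast 5 than 4 and 1 lower in RNA-seq contrast 5 than 3. Centring on the median of all genes and 18 degrees of freedom moved no count by over 1.5 times, and centring kept 110 calls of single genes and lost 5, with none reversed. Apart from the subset and the thresholds themselves, the cause of these shifts was not tested. Leaving out a replicate was not run, since the tables hold no values per library. No paired analysis was possible because the tables hold no values per library. The unknown depth limits what the wide GRO-seq errors of RRM2, FEN1 and PCNA can show.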
